A study of Mus musculus with 8 samples.

Results

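The genes described here are 10 mouse genes that read out or restrain Wnt/beta-catenin signalling: the target gene Sp5, the feedback genes Axin2, Nkd1, Rnf43, Znrf3 and Dkk1, and the transcription factor genes Lef1, Tcf7, Tcf7l1 and Tcf7l2. They were chosen by gene name, taking every non-control probe that the array files assign to 1 of these names, which gave 16 probes of 55681 and 10 genes of the 36406 gene names on the array. Messenger RNA was measured on 8 single-colour arrays, 4 of cells labelled KD, which carried a short hairpin RNA against Zrf1 (Dnajc2 in current annotation), and 4 of cells labelled control, which carried a control hairpin. All 8 samples were taken at day 6 of a neural induction of mouse embryonic stem cells, and the labels call all of them RGC-like (radial glia-like) neural progenitor cells. No source used here gives the strain, the number of clones or whether the samples were separate cultures, so p-values measure only the spread between these samples, which may be technical.

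When a Wnt ligand binds Frizzled and an Lrp5 or Lrp6 co-receptor, the destruction complex built on Axin and Apc stops degrading beta-catenin, which then enters the nucleus and joins Tcf/Lef factors on target genes. Several of those targets encode inhibitors of the same pathway, so their RNA is widely used as a readout of signalling and is part of its negative feedback. In the early embryo and in stem cell cultures the pathway is known for posterior axial identity and for controlling the balance between self-renewal and lineage choice.

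The members did not move in 1 direction. Sp5, Axin2, Lef1 and Nkd1 fell in KD cells, Rnf43 and Dkk1 rose about 2-fold, and Tcf7l1 and Znrf3 did not pass the test. Tcf7 and 1 of the tested Tcf7l2 probes were called higher by small amounts that depended on single arrays. Levels are given as log2 of the signal over the array's 75th percentile, so that 0 is that percentile, and levels of different probes cannot be set against each other. A change is KD minus control on this log2 scale, tested with limma across 29091 probes, and a probe is called when its Benjamini-Hochberg adjusted p over all of them is under 0.05.

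Several sequences show what was read. The probe of Sp5, the member that changed most, lies at chr2:70315688-70315747 (mm9, plus strand). The called probe of Axin2 lies at chr11:108803927-108803986 (plus strand). Lef1 is shown by both probes because they fell by different amounts, and Tcf7l2 by its 2 tested probes because 1 was called and the other was not. All are 60 bases long, given 5′ to 3′ as in the array files, with no base marked.
Sp5 probe A_51_P404193: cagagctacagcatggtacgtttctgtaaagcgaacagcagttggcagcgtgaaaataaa
Axin2 probe A_66_P134405: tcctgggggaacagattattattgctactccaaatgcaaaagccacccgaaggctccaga
Lef1 probe A_55_P2076871: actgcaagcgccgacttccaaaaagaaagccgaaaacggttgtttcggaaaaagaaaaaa
Lef1 probe A_51_P420400: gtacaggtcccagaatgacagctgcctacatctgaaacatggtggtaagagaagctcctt
Tcf7l2 probe A_55_P2143724: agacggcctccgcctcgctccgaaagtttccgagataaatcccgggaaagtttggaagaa
Tcf7l2 probe A_55_P2030160: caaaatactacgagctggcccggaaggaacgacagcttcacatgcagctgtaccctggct

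The arrays were of similar quality, with 53.4% to 60.3% of 59305 non-control spots well above background, none saturated, and a 75th percentile between 483 and 696 intensity units. The targeted gene Dnajc2 had a level of -2.32 ± 0.23 in KD cells and 1.87 ± 0.11 in control cells (SD, n = 4 each), a change of -4.19. Of 29091 tested probes 57.0% were called, 28.1% lower and 29.0% higher, so a call alone sets no probe apart in these samples. The change over all tested probes had a median of 0.05. Scaling the arrays by their medians gave a median of -0.12. Higher probes made up 37.7% of the calls with that scaling and 50.8% with the 75th percentile.

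The labelled cell type was set against marker lists, counting the brightest tested probe of each gene. Of 11 tested neural progenitor markers 10 were lower in KD cells and none was higher, and their summed linear signal was 40.5 to 42.0 times the 75th percentile on KD arrays and 157 to 162 times on control arrays. Such a sum weighs the brightest probes most. The median change of these markers was -1.94. Sox1, a neuroectoderm factor, had a level of -1.15 ± 0.17 in KD cells and 1.24 ± 0.08 in control cells. Fabp7, a radial glial fatty acid binding protein, was not well above background on any KD array. Pax6, a radial glial transcription factor, changed by -0.24 with its brighter probe (limma adjusted p = 0.101, or 0.0188 without control 4), and another Pax6 probe was called higher by 0.44. All 11 endoderm markers were higher, and their summed signal was 12.1 to 13.3 times the 75th percentile on KD arrays and 2.63 to 3.06 times on control arrays. Of 8 pluripotency markers 4 were lower and 2 higher, of 8 neuron markers 5 were lower and 1 higher, and of 5 tested mesoderm markers 3 were higher and none lower. The brighter probe of the mesoderm marker Kdr was not called, but a dimmer one was called lower by 1.34 (limma adjusted p = 2.84e-05). Summed signals of the pluripotency list were 342 to 389 on KD and 395 to 447 on control arrays. Those of the neuron list were 13.2 to 13.7 and 12.2 to 13.5, and those of the mesoderm list 10.5 to 12.5 and 7.19 to 9.63. Among the defining mesoderm markers, T was well above background on 1 control array alone and Mixl1 on none of the 8. Of the defining markers not yet given, the neural Nes changed by -0.98, the pluripotency factors Pou5f1 and Nanog by -0.33 (limma adjusted p = 0.141) and -2.44, and the endoderm factors Gata6 and Sox17 by 3.14 and 0.55. A second probe of Nanog and of Sox17 was not called. These shifts run alongside every change below, and their part in it was not tested. In bulk RNA, fewer cells of a type and less RNA per cell cannot be told apart.

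Of the 16 member probes 14 were well above background on all 8 arrays and were tested, at least 1 for each of the 10 genes. Of these 10 were called, 6 lower and 4 higher, which is 71.4% beside 57.0% of all tested probes. By at least 2-fold, 5 were called lower, beside 7.69% of all tested probes, and 2 were called higher, beside 10.5%. KD and control arrays did not overlap for 9 of the 14, beside 54.1% of all tested probes. The KD arrays lay below in 6 of these, beside 26.7%, and above in 3, beside 27.4%. The median change was 0.11 over the 14 probes and 0.13 over the 10 genes with their brightest tested probe, against 0.05 over all tested probes and 0.04 over all genes. The members had no common shift. Of the 7 probes called with changes of at least 2-fold 5 fell, and 2 of these 5 read the same gene, Lef1.

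**Figure D1:**
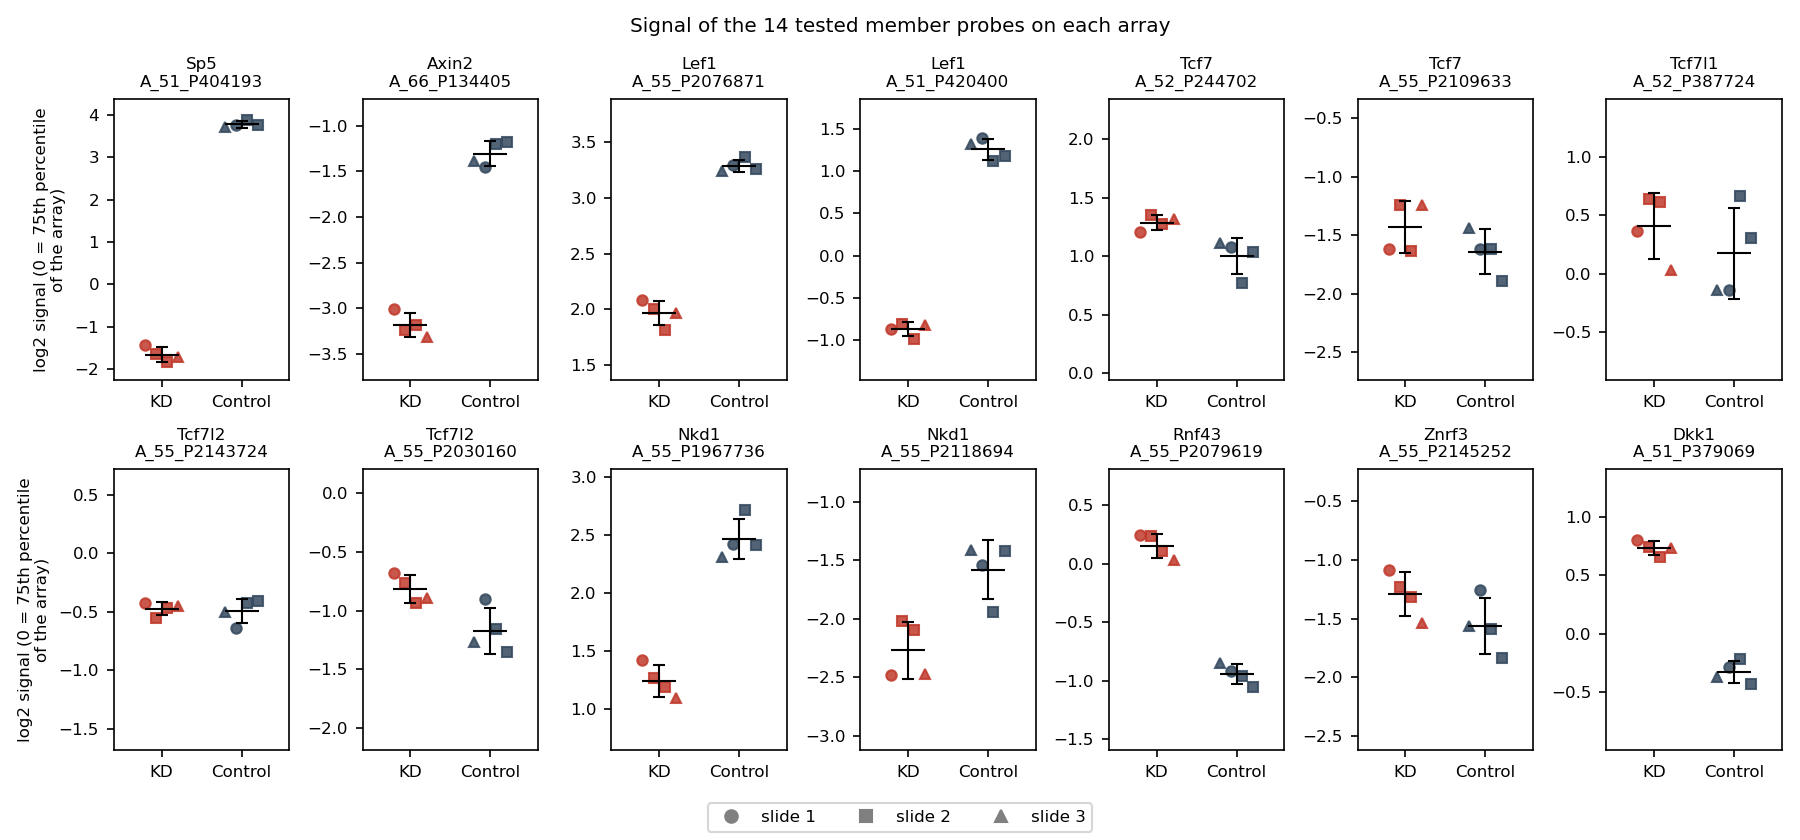
Level of each of the 14 tested member probes on every array (points, shaped by slide) with the mean and SD of 4 KD arrays on the left and 4 control arrays on the right of each panel; the vertical axis is the log2 signal relative to the 75th percentile and its range differs between panels. The groups stand apart for Sp5, Axin2, Lef1, Nkd1, Rnf43, Dkk1 and the brighter Tcf7 probe, and overlap for Tcf7l1, Tcf7l2, Znrf3 and the dimmer Tcf7 probe.

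Sp5 encodes a zinc finger transcription factor that is a direct target of beta-catenin in many tissues. Its level was -1.44, -1.66, -1.84 and -1.72 on the KD arrays and 3.71, 3.76, 3.89 and 3.77 on the control arrays. The groups lay far apart on every array, and the signal was still well above background on all 4 KD arrays. The change was -5.44 (SE 0.10, 95% interval -5.66 to -5.22), which is 43.5-fold lower in KD cells (limma adjusted p = 3.37e-08). Sorted by size in either direction it was the 14th largest change of the 29091 tested probes. Within the 3 slides, each of which held arrays of both groups, it was -5.19, -5.57 and -5.43. Slides 1 and 3 held only 1 array of each group, so their values here and below are differences between single arrays. Across the other settings tried, it ran from -5.61 to -4.93.

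Axin2 encodes a scaffold of the destruction complex that is induced by the pathway it switches off. Its called probe had levels of -3.01, -3.24, -3.19 and -3.31 on the KD arrays and -1.39, -1.46, -1.20 and -1.18 on the control arrays. All KD arrays were below all control arrays, by a gap larger than the spread within either group. The change was -1.88 (SE 0.10), or 3.69-fold lower (limma adjusted p = 1.65e-06), and -1.55, -2.03 and -1.93 within the slides. With normexp and quantile normalization it was -1.24 (limma adjusted p = 5.54e-07), and over all settings tried it ran from -2.05 to -1.23. A second Axin2 probe (A_55_P2000783, chr11:108812034-108812093, mm9) was well above background on control 3 alone and was not tested.

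Nkd1 encodes a Dishevelled-binding inhibitor of Wnt signalling and is itself a target of the pathway. Its brighter probe (A_55_P1967736, chr8:91116160-91116219, mm9) had levels of 1.42, 1.27, 1.19 and 1.10 on the KD arrays and 2.31, 2.43, 2.72 and 2.41 on the control arrays. No KD array reached the lowest control array. The change was -1.22 (SE 0.11), or 2.34-fold lower (limma adjusted p = 2.89e-05). The dimmer probe (A_55_P2118694) also fell, by 0.69 (SE 0.16, limma adjusted p = 0.00608). Both probes carry the same transcript accession, and the difference between their changes had an exact permutation p of 0.0857 (adjusted p = 0.200 over 7 pairs of probes of the same gene).

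Rnf43 and Znrf3 encode related membrane ubiquitin ligases that remove Frizzled receptors from the cell surface, and R-spondins block them. Rnf43 (chr11:87548958-87549017, mm9) had levels of 0.24, 0.23, 0.11 and 0.03 on the KD arrays and -0.85, -0.92, -0.96 and -1.06 on the control arrays. It rose by 1.10 (SE 0.08), which is 2.14-fold higher in KD cells, with all KD arrays above all control arrays (limma adjusted p = 8.24e-06). Znrf3 (chr11:5180918-5180977, mm9) had levels of -1.08, -1.23, -1.31 and -1.54 on the KD arrays and -1.56, -1.25, -1.59 and -1.84 on the control arrays, and the groups overlapped. Its change was 0.27 with a 95% interval of -0.06 to 0.60 (limma adjusted p = 0.141). It was 0.37 and called without control 2 (limma adjusted p = 0.0441), and 0.10 with median scaling (limma adjusted p = 0.627) and 0.09 with normexp background correction and quantile normalization (limma adjusted p = 0.474). The change of Rnf43 exceeded that of Znrf3 by 0.83 (SE 0.11), with an exact permutation p of 0.0286, the smallest that 70 splits of the arrays allow. That pair was chosen after the values were seen.

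Dkk1 encodes a secreted antagonist that binds Lrp5 and Lrp6. Its level (chr19:30621424-30621483, mm9) was 0.80, 0.74, 0.66 and 0.73 on the KD arrays and -0.37, -0.29, -0.22 and -0.43 on the control arrays. The KD arrays were all higher, and the gap between the groups was several times the spread within either. The change was 1.06 (SE 0.07), or 2.08-fold higher (limma adjusted p = 5.66e-06), and it was 1.09, 1.02 and 1.11 within the slides. Rnf43 and Dkk1 moved opposite to Sp5, Axin2 and Nkd1, although all of these genes are known as targets or feedback inhibitors of the pathway.

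**Figure D2:**
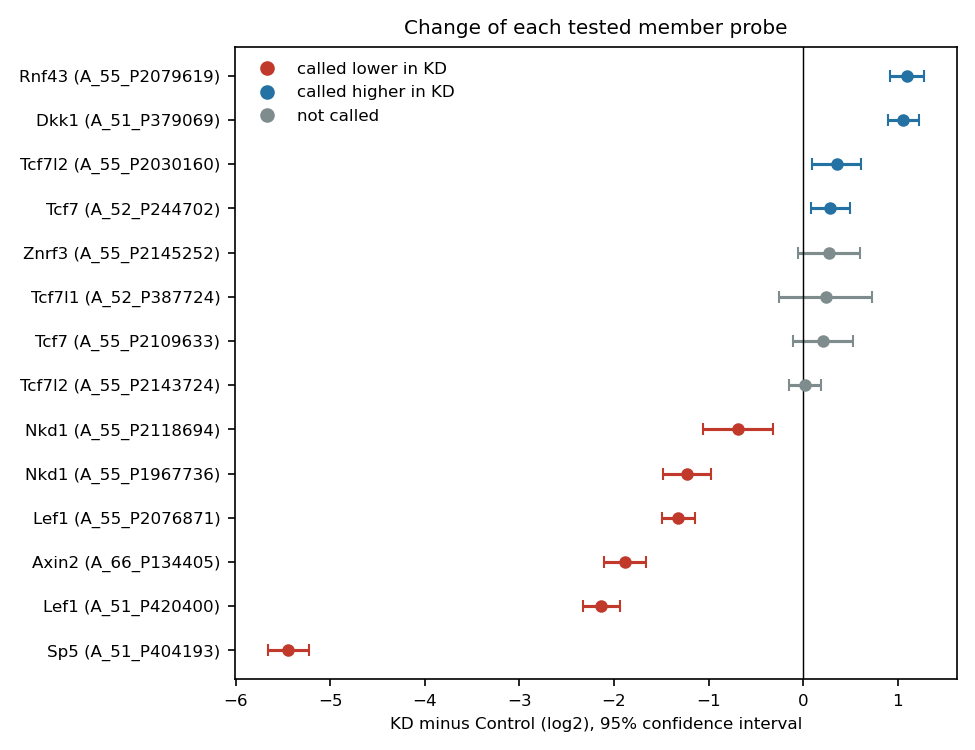
Change of each tested member probe, KD minus control on the log2 scale (horizontal axis), with its 95% confidence interval, sorted from the highest to the lowest and coloured by call. Sp5 stands alone at -5.44, the Lef1, Axin2 and Nkd1 probes lie between -2.13 and -0.69, and Rnf43 and Dkk1 lie at 1.10 and 1.06.

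The 4 Tcf/Lef genes encode the DNA-binding partners of beta-catenin, which share a high mobility group domain. Lef1 and Tcf7 mostly activate targets and are often targets themselves, while Tcf7l1 is best known in mouse embryonic stem cells as a repressor. Lef1 was the member of this family that fell. Its brighter probe had levels of 2.08, 2.01, 1.82 and 1.97 on the KD arrays and 3.24, 3.29, 3.36 and 3.26 on the control arrays, a change of -1.32 (SE 0.08), or 2.50-fold lower (limma adjusted p = 2.54e-06). The dimmer probe had levels of -0.87, -0.81, -0.99 and -0.82 on the KD arrays and 1.32, 1.40, 1.13 and 1.19 on the control arrays. It fell by 2.13 (SE 0.08), or 4.39-fold (limma adjusted p = 4.54e-07). The groups stood apart with both probes.

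The Lef1 probes read different stretches of the gene. The brighter one lies within 60 bases at chr3:130926200-130926259 (mm9), while the 60 bases of the dimmer one are spread over 18162 bases, at chr3:130907851-130926012, so that it crosses at least 1 splice junction. They were designed on different transcript records. Their changes differed by 0.81 with an exact permutation p of 0.0286, the smallest the design allows. It came to 0.200 when adjusted over the 7 pairs of probes of the same gene. Those pairs include ones with the Axin2 and Tcf7l2 probes that were too dim to be tested. A single pair at the smallest p cannot pass this adjustment, so the adjusted value does not decide whether the probes changed equally. Which exons they cover was not analysed here.

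Tcf7 was close to level between the groups. Its brighter probe (A_52_P244702) had levels of 1.21, 1.35, 1.27 and 1.32 on the KD arrays and 1.12, 1.08, 0.77 and 1.04 on the control arrays. The arrays did not overlap, but the lowest KD array and the highest control array were close. The change was 0.29 (SE 0.09, limma adjusted p = 0.0249). It was not called without KD 2, KD 3 or KD 4 (limma adjusted p = 0.0644, 0.0507 and 0.0599), and with median scaling it was 0.11 (limma adjusted p = 0.420). The other Tcf7 probe changed by 0.21 (limma adjusted p = 0.236).

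Tcf7l1 had levels of 0.37, 0.64, 0.61 and 0.03 on the KD arrays and -0.14, -0.13, 0.67 and 0.31 on the control arrays (chr6:72576377-72576436, mm9). The KD arrays lay within the range of the control arrays, and control 3 was the highest of all 8 arrays. The change was 0.24 with a 95% interval of -0.26 to 0.73 (limma adjusted p = 0.388), which holds small falls as well as rises.

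Tcf7l2 was read by 3 probes. The one nearest the 5′ end of the gene (A_55_P2143724, chr19:55817272-55817331, mm9) had levels of -0.42, -0.56, -0.47 and -0.45 on the KD arrays and -0.50, -0.64, -0.43 and -0.41 on the control arrays. Its change was 0.02 with a 95% interval of -0.15 to 0.19 (limma adjusted p = 0.832). The second probe (A_55_P2030160, chr19:55994029-55994088) had levels of -0.68, -0.76, -0.94 and -0.89 on the KD arrays and -1.27, -0.90, -1.16 and -1.35 on the control arrays. It was called higher by 0.35 (limma adjusted p = 0.0257), a call that ended without control 1, control 4, KD 1 or KD 2 (limma adjusted p from 0.0627 to 0.0679). With median scaling its change was 0.18 (limma adjusted p = 0.322) and in the value table of the authors it was 0.19 (limma adjusted p = 0.0584). The third probe (A_55_P2260094) stayed at background on all 8 arrays.

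The changes of the Tcf/Lef genes were compared in 6 pairs, each with its brightest tested probe. The change of Lef1 minus that of Tcf7 was -1.61 (SE 0.12), minus that of Tcf7l1 -1.56 (SE 0.24), and minus that of Tcf7l2 -1.34 (SE 0.08). Each of these had an exact permutation p of 0.0286, the smallest possible with 70 splits. The adjusted p over the 6 pairs was 0.0571, so none passed the threshold. When only the Lef1 pairs reach that smallest p, the adjusted p cannot fall under 0.05. The miss therefore does not show that the changes were equal. The remaining pairs differed by 0.05 for Tcf7 and Tcf7l1, 0.26 for Tcf7 and Tcf7l2 and 0.21 for Tcf7l1 and Tcf7l2, with adjusted exact p values of 0.771, 0.0857 and 0.411.

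**Figure D3:**
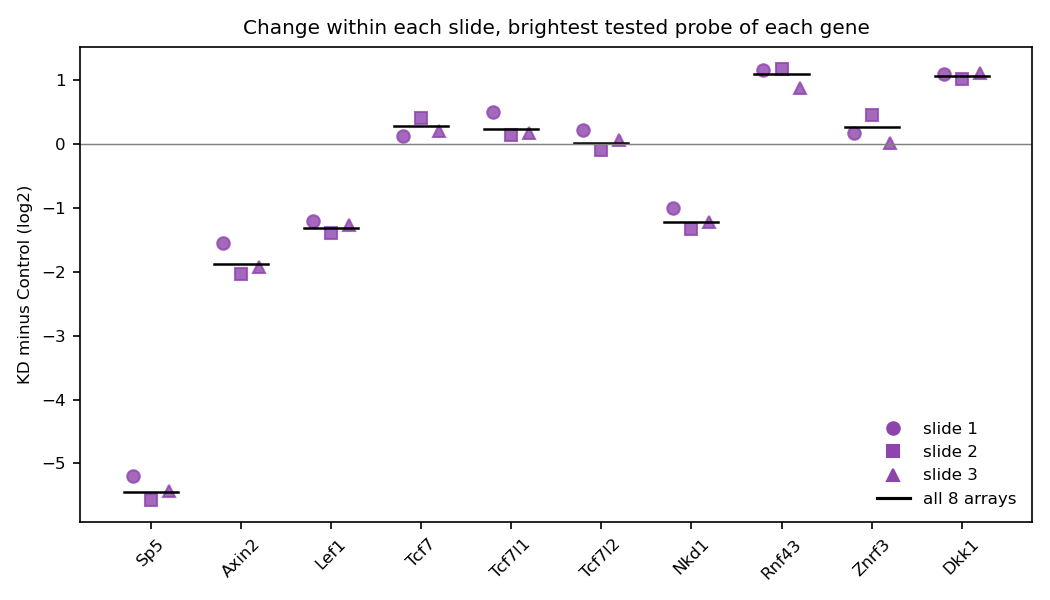
Change within each of the 3 slides (points) and over all 8 arrays (lines), KD minus control on the log2 scale (vertical axis), for the brightest tested probe of each member gene. Slides 1 and 3 hold only 1 array of each group. The slides agree in sign for all genes but Tcf7l2, and the within-slide values of Sp5 run from -5.57 to -5.19.

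Promoter sequence was looked at because some members moved together and others moved against them. The 250 bases before the annotated start were available for 9 of the 10 genes in 15 windows (RefSeq, GRCm38.p6). The Tcf/Lef core was searched on both strands as CTTTGNN with A or T at each of the last positions. It was present in 4 of the 15 windows, belonging to Sp5, Dkk1, Lef1 and Tcf7l2, and in 14.8% of 32817 windows of all genes. By gene it was present in 4 of 9, beside 16.8% of 27025 genes. For Lef1 and Tcf7l2 it lay only in the window furthest downstream, and their other windows held none. Sp5, which fell furthest, and Dkk1, which rose, each hold 2 matches, while the Axin2 window holds none. A match is a description of the letters and not a binding site. The windows of Sp5 (chr2:70474673-70474922, plus strand), Dkk1 (chr19:30549497-30549746, minus strand) and Axin2 (chr11:108920099-108920348, plus strand) are shown 5′ to 3′, with the matches in capitals.
Sp5 promoter: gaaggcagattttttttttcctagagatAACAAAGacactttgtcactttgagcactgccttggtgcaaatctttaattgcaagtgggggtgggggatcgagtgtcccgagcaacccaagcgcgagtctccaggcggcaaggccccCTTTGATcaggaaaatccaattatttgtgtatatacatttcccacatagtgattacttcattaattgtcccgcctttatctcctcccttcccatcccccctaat
Dkk1 promoter: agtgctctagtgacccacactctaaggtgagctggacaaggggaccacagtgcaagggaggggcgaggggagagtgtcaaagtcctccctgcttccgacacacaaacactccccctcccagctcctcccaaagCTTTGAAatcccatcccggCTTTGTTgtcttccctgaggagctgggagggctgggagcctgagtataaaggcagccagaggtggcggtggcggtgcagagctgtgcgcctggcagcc
Axin2 promoter: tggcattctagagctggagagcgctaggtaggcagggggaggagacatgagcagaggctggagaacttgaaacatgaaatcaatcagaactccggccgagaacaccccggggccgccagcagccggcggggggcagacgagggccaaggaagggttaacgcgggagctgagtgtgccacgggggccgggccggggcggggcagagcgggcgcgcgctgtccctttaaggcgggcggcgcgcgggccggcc

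Other genes of the pathway were taken from lists by role, with the brightest tested probe of each gene, beside 57.6% of all genes called, 28.5% lower and 29.1% higher. Of 10 tested co-receptors, R-spondins and their receptors, with the ligand export genes, 7 were lower and 1 higher, with a median change of -0.71. The R-spondin gene Rspo3, whose product amplifies Wnt signals by blocking Rnf43 and Znrf3, fell by 4.07 (limma adjusted p = 8.24e-07), and the R-spondin receptor gene Lgr5, also a Wnt target, fell by 2.31 (limma adjusted p = 5.25e-07). Wls, needed to secrete Wnt ligands, fell by 1.21. Rspo4 was at least 2.62-fold higher, since it was not well above background on any control array and was on all KD arrays (limma adjusted p = 6.71e-08). That bound sets the KD mean against the lowest signal well above background on each control array, or the probe's own signal where higher.

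Core genes of the pathway mostly fell or did not pass the test. Of 17 tested genes for beta-catenin, the destruction complex and Dishevelled, 7 were lower and 1 higher, with a median change of -0.25. The beta-catenin gene Ctnnb1 had a level of 4.39 ± 0.15 in KD cells and 4.64 ± 0.10 in control cells, a change of -0.25 that missed the threshold (limma adjusted p = 0.0530) and passed it without KD 2 (limma adjusted p = 0.0338). Axin1 changed by -0.35 (limma adjusted p = 0.0562) and passed it without control 3 or KD 4 (limma adjusted p = 0.0119 and 0.0395). No call was made for Apc, which changed by 0.10 (limma adjusted p = 0.399), or Lrp5, which changed by -0.12 (limma adjusted p = 0.530). The kinase gene Gsk3b fell by 0.51 (limma adjusted p = 0.00470) with its brightest probe and was called with 2 of 3. Lrp6 fell by 0.23 with its brighter probe (limma adjusted p = 0.0181), a call that ended without KD 2 (limma adjusted p = 0.0518). The dimmer Lrp6 probe changed by -0.28 and was not called (limma adjusted p = 0.0638). Larger changes were those of Btrc, the ubiquitin ligase adaptor for beta-catenin (-1.54), Amer1, a membrane regulator of the complex (-1.12), and the tankyrase gene Tnks, whose product promotes Axin breakdown (0.59). The probes of the casein kinase gene Csnk1d disagreed, since the brighter changed by -1.18 (limma adjusted p = 5.57e-06) and the other by 0.37 (limma adjusted p = 0.0180).

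Among 15 tested nuclear cofactors of Tcf/Lef 5 were lower and 3 higher, with a median change of -0.15. The corepressor genes Ctbp1, Tle1 and Ctbp2 fell by 1.32, 1.00 and 0.75, and the repressor gene Hic1 rose by 1.94. The dimmest Tle1 probe changed by -0.05 (limma adjusted p = 0.806). Secreted antagonists and related inhibitors split, with 8 of 15 lower, 6 higher and a median of -0.49. Sfrp2, a secreted Frizzled-like antagonist, fell by 2.03. Tpbg, a membrane protein known from zebrafish as a Wnt inhibitor, fell by 1.78. Sfrp4 was higher by 2.35 (3 of 4 control arrays well above background), and Wif1, a secreted Wnt-binding inhibitor, was at least 3.52-fold higher. Both, like Rspo4, entered the test only through their KD arrays, so their calls are no separate evidence. With normexp and quantile normalization the fitted changes of these dim genes were smaller, 1.202 for Sfrp4 and 0.95 for Wif1, and 0.99 for Rspo4. Both the rise of Dkk1 and the falls of Axin2 and Nkd1 had counterparts in this list.

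Other known Wnt targets also went both ways. Of 18 tested, 6 were lower and 9 higher, with a median of 0.43. Cdx2 fell by 4.03 (3 of 4 KD arrays well above background), Cdx1 fell by 3.42, the cyclin gene Ccnd1 by 3.26 and Myc by 2.51, with limma adjusted p values from 5.06e-08 for Ccnd1 to 2.30e-07 for Cdx1. Further called genes of this list were named after their values were seen. Tnfrsf19 changed by -2.89 and Sall4 by -0.46. Among those called higher were Jun by 1.96, Ascl2 by 1.495, Tbx6 by 1.31, Sp8 by 1.28, Fgf8 by 1.19, Id2 by 0.66, Nkd2 by 0.61 and Nkx1-2 by 0.54. A dimmer probe of Tnfrsf19, of Tbx6 and of Sall4 was tested and not called. Sp8, from the same zinc finger family as Sp5, moved against it.

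**Figure D4:**
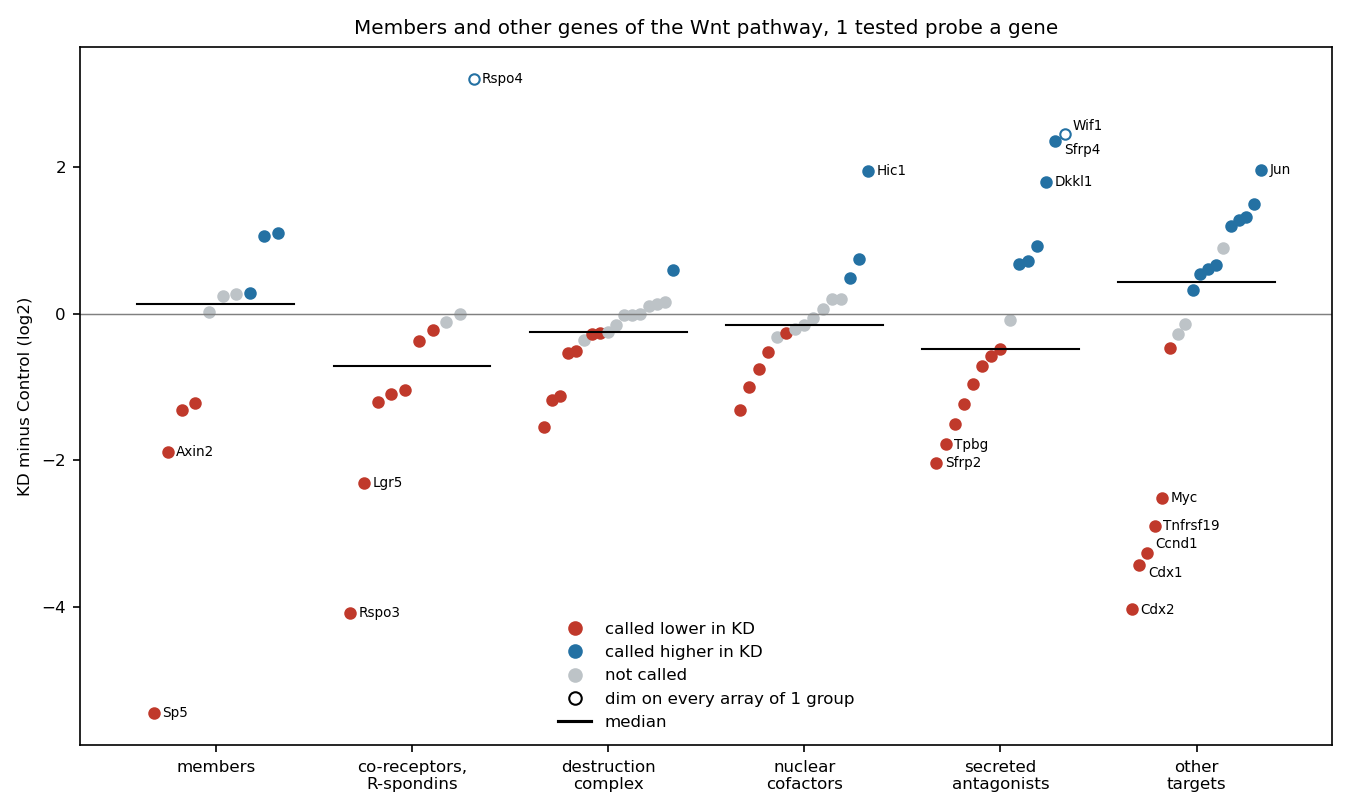
Change of each gene, KD minus control on the log2 scale (vertical axis), for the 10 members and for 5 lists of other Wnt pathway genes (horizontal axis), 1 tested probe a gene, sorted within each list and coloured by call, with black lines at the medians and open points for genes that were dim on every array of 1 group, whose fitted changes are no bounds. Names stand beside changes beyond 1.7; Sp5 at -5.44 has the lowest value shown, followed by Rspo3 and Cdx2.

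Genes with a profile like that of Sp5 or Axin2 were found by the root mean square distance between profiles over the 8 arrays, each centred on its own mean, among 13041 genes with a current symbol. Nearest to Sp5 were Dach2 at 0.11, Prdm13 at 0.19 and Pcdhb21 at 0.32 log2 units. Nearest to Axin2 were Pcdh18 at 0.07, Spef1 at 0.08 and Lrrc4b at 0.08. The 8 arrays carry only 1 contrast, so likeness here is mostly a similar size of change.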

How the data were processed

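Each deposited scanner file gives 1 intensity a spot, which, per the file headers, the authors extracted with Agilent Feature Extraction 10.7.3.1 from arrays of build mm9 and corrected for background within each array. Labelling started, per the labels, from 100 ng of RNA with an oligo-dT primer and Cy3. The flags for spots well above background, with values of 0 or 1, are deposited in the same files. The authors' value table holds log2 values with a median of 7.10 in every column. How it was made is not given in the sources used here. Its columns share 1 distribution and correlate at r = 0.99999 with the normexp and quantile values computed here, across probes, so these 2 alternatives are not independent.

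Control spots and outlier spots were left out, spots of a probe were averaged, and each array was divided by its 75th percentile before log2. A probe entered the test when it was well above background throughout either group, which left 29091 of 55681. The two-sided test used lmFit and eBayes of limma 3.58.1 (R 4.3.3), with Benjamini-Hochberg adjustment over all tested probes. Differences between probes were tested with exact permutation over arrays. The fit was tested on simulated data of 29091 probes, where 82% of probes changed 2-fold and 48% of those changed 1.5-fold were called with the right sign. Only 50 probes were changed at each size there, whereas 57.0% of the real tested probes were called. The adjusted threshold was therefore stricter in the simulation, and its shares do not give the power of the real fit. Precision is limited by the number of arrays.

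Of the 16 member probes 15 matched the same symbol in a RefSeq table by accession. The other was the brighter Lef1 probe, which carries an Ensembl transcript record and could not be checked this way. Amer1 was found by accession under an older name. The names of the KD files carry shared numbers, KD 1 with KD 2 and KD 3 with KD 4. Those of KD 2 and KD 4 also carry the letters TR, which no control file name has. These signs could mark arrays of the same RNA, although no source used here says so. In that case the KD group holds fewer than 4 separate samples. KD arrays that share a number differed with an SD of 0.38 to 0.41 in log2, and other pairs of KD arrays with 0.32 to 0.42, and averaging them is among the alternatives. Samples with the same replicate number did not deviate together (correlations -0.19 to 0.11), so the numbers were not taken as pairs. Slide and scan coincide.

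The members and lists were chosen with earlier results of these data known. Genes named are all members, Dnajc2, 6 core pathway genes, up to 4 called genes with the smallest p in each pathway list, 10 cell type markers, and the 3 nearest profiles to Sp5 and to Axin2. Further called Wnt targets were added after their values were seen, and 1 is not reported here.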

Additional observations from a re-analysis of the deposited data

Results flagged for a closer look

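Among 98 sets of 4 arrays (49 named probes in each group), 4 held an array far from the other 3 by Dixon's test, where chance gives about 1 in 20. None was a member probe, and all 4 were in control 3. Cdx1 was at 4.11 there, against 3.68 to 3.75 on the other control arrays. Lgr5 was at -0.38, against -0.58 to -0.55. Sfrp4 was at -3.45, against -3.94 to -3.89, and Ctnnb1 at 4.78, against 4.57 to 4.60. Control 3 was also the 1 array on which the second Axin2 probe was well above background.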

How the results depend on the processing

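Over 17 alternatives (other scalings and filters, the authors' table, slide or replicate as a block, 1 probe a gene, KD arrays averaged, each array left out), Sp5, Axin2, Lef1, Nkd1, Rnf43 and Dkk1 kept their direction and their call (Axin2 between -2.05 and -1.23), and 8 to 11 member probes were called in the 16 that keep all probes of a gene. The change of Tcf7 lost its call with median scaling (0.11), without a filter on dim probes (0.29, adjusted p = 0.0849), with a replicate block (0.29, adjusted p = 0.0625), with KD arrays that share a number averaged (0.29, adjusted p = 0.0985), and ran from 0.21 to 0.32 with 1 array left out. Fewer KD values and more probes tested are part of the construction of 2 of these; the cause was not tested for the others. The brightest Tcf7l2 probe was not called under any of them, and its change turned negative with median scaling (-0.15), normexp and quantile normalization (-0.026) and the authors' table (-0.028), and ran from -0.026 to 0.049 with 1 array left out. Znrf3 ran from 0.087 to 0.37 over the 17, and from 0.18 to 0.37 with 1 array left out, called without control 2 alone. Tcf7l1 was at 0.065 with median scaling. Tcf7 minus Tcf7l1 ran from -0.19 to 0.19 with 1 array left out. Apc, never called, was at -0.074, -0.0063 and -0.0060 under the same 3 settings, of which the authors' table nearly repeats the normexp and quantile values (r = 0.99999). With the replicate block 9 member probes were called, and no member but Tcf7 changed its call. Dim probes limit Axin2 and Tcf7l2 to 1 and 2 probes.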
